A study of Mus musculus with 7 samples.

Results

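The nuclear factor I (NFI) family of transcription factors was described in cultured BB-p53n OPCs. Its 4 genes, *Nfia*, *Nfib*, *Nfic* and *Nfix*, were found by their symbols among the 33696 genes of the count matrix, and each occurred once. BB-p53n OPCs are primary mouse oligodendrocyte progenitor cells (OPCs), taken from postnatal *Trp53* fl/fl C57BL/6 pups of either sex with an antibody to PDGFRα. They were transduced with a retrovirus that carries PDGFB and CRE, so that cells that took up the virus lose *Trp53* and overexpress PDGFB. Nuclei of the cultured cells were measured by single-nucleus RNA sequencing (snRNA-seq) with 10x 3′ chemistry in 1 library, which has no replicate and no control culture. Of the 10047 deposited barcodes, the 8917 with 2000 to 8000 detected genes were kept. The members were also compared between the 96 kept nuclei with 2 or more UMIs (unique molecular identifiers, each 1 captured transcript) of *Bnc2*, called *Bnc2* nuclei, and the other 8821. *Bnc2* encodes basonuclin 2, a zinc finger protein.

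NFI proteins bind a palindrome of the half-sites TTGGC and GCCAA as dimers of the same or of different members, through a similar DNA-binding domain. In the developing central nervous system NFIA is induced by SOX9 at the onset of gliogenesis, and NFIA, NFIB and NFIX promote astroglial genes and the exit from the neural progenitor state. NFIA is known to oppose SOX10 at myelin genes, and its transcript is a marker of glial precursors and of many gliomas.

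The kept nuclei held 141138093 UMIs, and the median nucleus held 13771 UMIs from 4718 genes. Mitochondrial genes took 6.34% of the UMIs. *Trp53* was at 24.8 CPM (the UMIs of a gene scaled to 1000000 UMIs of the same nuclei), and mouse *Pdgfb* at 0.531 CPM. These levels have no control, the counts do not show which exons were read, and viral transcripts were not analysed here. As a check of the label, the 10 OPC markers summed to 6231 CPM in the *Bnc2* nuclei and 7066 CPM in the others, and among the 8 clusters described below the lowest sum was 1823 CPM (cluster 1) and the highest 9729.8 CPM (cluster 0). Scrublet marked 1488 of the 8917 nuclei as possible doublets, and none was removed for the values given first. All intervals are 95% exact intervals (Poisson for levels, binomial for shares, conditional binomial for ratios), cover counting error only and say nothing of the spread between cultures. No test was run, since there is 1 library.

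*Nfia* and *Nfib* made up nearly all NFI transcripts, in almost every nucleus, and *Nfix* and *Nfic* were minor members. Together the 4 genes had 215260 UMIs, or 1525 CPM. *Nfia* (ENSMUSG00000028565, GRCm39 chromosome 4, 97660971 to 98007111, plus strand) was at 714 CPM (95% exact Poisson interval 710 to 719), and 174 of the 25898 genes with a UMI had more UMIs. *Nfib* (ENSMUSG00000008575, chromosome 4, 82208410 to 82623987, minus strand) was at 677 CPM (673 to 681), with 185 genes above it. *Nfix* (ENSMUSG00000001911, chromosome 8, 85426505 to 85527046, minus strand) was at 101 CPM (99.0 to 102). *Nfic* (ENSMUSG00000055053, chromosome 10, 81232020 to 81291469, minus strand) was at 33.3 CPM (32.4 to 34.3). As shares of the family's UMIs these were 46.8%, 44.4%, 6.60% and 2.19%.

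The first 2 members are also the longest genes, so that levels were compared per length. Per kb of gene body, which fits unspliced nuclear RNA, *Nfia* was at 2.06 CPM per kb (2.05 to 2.08), *Nfib* at 1.63 (1.62 to 1.64), *Nfix* at 1.00 (0.985 to 1.02) and *Nfic* at 0.561 (0.545 to 0.577). No neighbours in this order overlapped in their intervals. Per kb of exon the order was the same and the gaps were wider, at 63.3, 41.3, 13.6 and 4.99 CPM per kb. A 3′ library counts transcript ends and internal priming sites, so neither scale gives molecules per cell. Genes on the opposite strand overlap 3 of the members at levels that matter: E130114P18Rik over *Nfia* (41.7 CPM), Gm11266 over *Nfib* (14.1 CPM) and *Trmt1* over *Nfix* (33.8 CPM). The authors used the default Cell Ranger pipeline, and the sources used here do not describe its use of strand. Whether any reads were divided between such pairs was not checked.

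The 250 bases before the start of the canonical *Nfia* transcript (GENCODE vM39) are shown because *Nfia* is the member whose level differed most with *Bnc2*. They lie at chr4:97665558-97665807 of GRCm39 on the plus strand, inside the annotated span of the gene, and overlap no annotated exon. Capitals mark the GC box GGGCGG or its reverse complement CCGCCC.
Nfia: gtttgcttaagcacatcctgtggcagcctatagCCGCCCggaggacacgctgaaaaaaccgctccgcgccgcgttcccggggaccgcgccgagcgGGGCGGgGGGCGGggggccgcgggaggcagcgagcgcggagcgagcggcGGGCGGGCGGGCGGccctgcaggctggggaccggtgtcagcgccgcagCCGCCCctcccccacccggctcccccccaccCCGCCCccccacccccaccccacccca

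The GC box occurred 8 times here, overlapping matches included, against 1 in *Nfib*, 3 in *Nfic* and 2 in *Nfix*, and 36.3% of 21757 promoters of the same length held it. The windows of *Nfib*, *Nfic* and *Nfix* also lie inside the annotated spans of their genes. They and the *Bnc2* window overlap annotated exons, unlike that of *Nfia*, and are not shown. The windows compared are therefore not alike. GC content was 78.8% in the *Nfia* window, 48.4% in *Nfib*, 61.6% in *Nfic* and 52.8% in *Nfix*, with a median of 53.2% over all promoters. The NFI half-site TTGGC or its complement GCCAA was in none of the 4 member windows, was once in the *Bnc2* window, and was in 43.3% of all promoters. The full site, both half-sites with 5 bases between them, was in 0.0322% of them and in no member window. Of the RBPJ core TGGGAA and the SOX core ACAAT, searched for on both strands because Notch signalling and SOX9 lie upstream of NFIA, the first was in no member window and the second only in that of *Nfib*, with 2 matches, against 22.7% and 26.9% of all promoters. These are counts of letters in these windows and say nothing of binding.

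When each nucleus was thinned to 5000 UMIs, leaving 8760 nuclei and dropping 157 shallower ones, *Nfia* was detected in 93.0% (exact binomial interval 92.4 to 93.5) and *Nfib* in 94.2% (93.7 to 94.6). *Nfix* was detected in 38.7% (37.6 to 39.7) and *Nfic* in 15.3% (14.5 to 16.1). Without thinning the shares were 98.5%, 99.0%, 67.3% and 37.9%. The library holds no cell type known to lack NFI transcripts, so the share that free RNA gives was not tested. At this depth 50.01% of nuclei had UMIs of 2 members, 37.6% of 3, 5.38% of all 4, 6.60% of 1 and 0.365% of none.

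The members differed in how evenly they were spread over nuclei. The variance of UMIs per nucleus at 5000 UMIs, divided by its mean, was 1.03 for *Nfic*, close to the value of 1 that Poisson counting gives. It was 1.19 for *Nfix*, 1.40 for *Nfib* and 1.92 for *Nfia*, whose highest nucleus had 29 UMIs against a median of 3. Over the same 8760 nuclei the correlation between any 2 members lay between −0.006 and 0.088, low values that sparse counts also give, from nuclei that share 1 library.

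In the *Bnc2* nuclei *Nfia* was about 2 times as high as in the other nuclei, while *Nfib* differed by less than its counting error. Neither minor member passed a ratio of 1.5 in either direction in this comparison, but each did in an alternative. *Nfic* was at 1.81 when nuclei were thinned to 5000 UMIs before *Bnc2* was counted (33 *Bnc2* nuclei). *Nfix* was at 0.630, past 1.5 downward, outside cluster 7 of the clusters described below (34 *Bnc2* nuclei). *Nfia* was at 1386 CPM (1329 to 1445) against 707 CPM (702 to 711), a ratio of 1.96 (1.88 to 2.05). *Nfib* was at 663 CPM (624 to 704) against 677 CPM (673 to 681), a ratio of 0.979 (0.921 to 1.04). *Nfic* was at 42.9 against 33.2 CPM, a ratio of 1.29 (1.00 to 1.64) from 68 UMIs. *Nfix* was at 80.8 against 101 CPM, a ratio of 0.801 (0.667 to 0.953) from 128 UMIs. Thus 1 of the 4 members passed a ratio of 1.5 upward and none downward, where 11.3% of 13787 genes with at least 1 CPM were at least 1.5 times higher and 12.8% at least 1.5 times lower. Among the 7355 genes with at least 20 CPM, which include all members, 4.57% were that much higher and 4.3% that much lower, and 106 genes had a higher ratio than *Nfia*. The share of *Nfia* in the family's UMIs was 63.8% (62.2 to 65.4) in *Bnc2* nuclei and 46.6% (46.3 to 46.8) in the others, and that of *Nfib* was 30.5% and 44.6%.

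Nucleus by nucleus, *Nfia* in the 96 *Bnc2* nuclei ran from 0 to 4216 CPM with a median of 1292, and in the other 8821 from 0 to 6157 CPM with a median of 633. The 2 ranges overlap fully, but 85.4% of *Bnc2* nuclei lay above the median of the others. For *Nfib* the medians were 650.0 and 644 CPM, and 52.1% lay above. At 5000 UMIs a *Bnc2* nucleus had a median of 6 *Nfia* UMIs (mean 7.79) and another nucleus 3 (mean 3.47). Means of *Nfib* were 3.52 and 3.38. The *Bnc2* nuclei had somewhat fewer UMIs, a median of 11857.5 against 13783, and 5.87% mitochondrial UMIs against 6.34%.

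**Figure D1:**
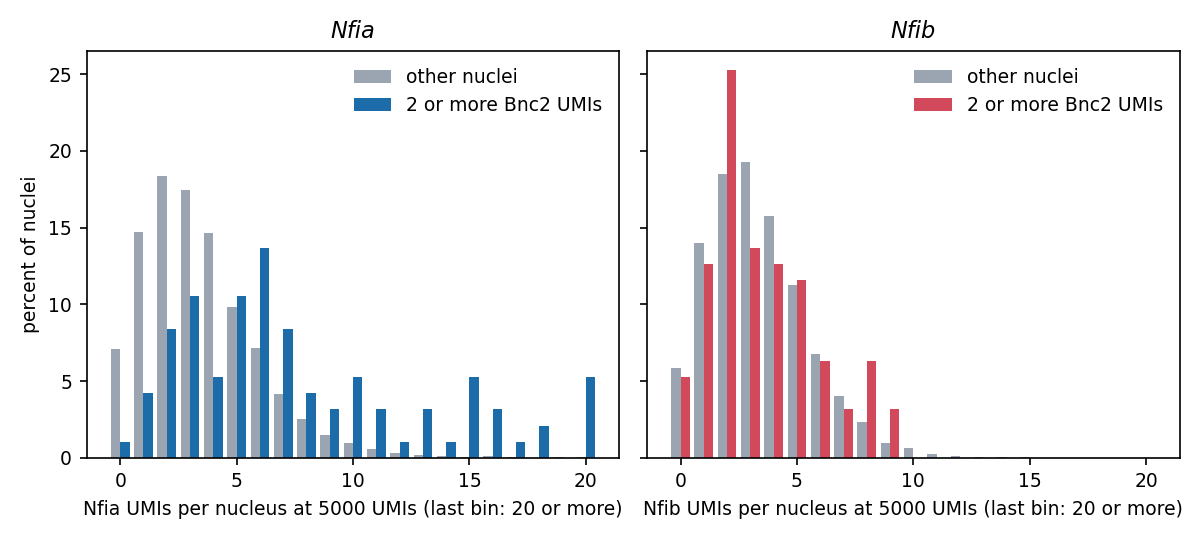
Percent of nuclei (y axis) by UMIs of *Nfia* (left) and *Nfib* (right) after thinning to 5000 UMIs per nucleus (x axis, last bin 20 or more), for 95 *Bnc2* nuclei (colour) and 8665 other nuclei (grey). The *Nfia* bars of *Bnc2* nuclei reach to the last bin, which holds 5.26% of them and 0.0577% of the others, while the *Nfib* bars of *Bnc2* nuclei end at 9 UMIs, inside the range of the others (up to 16).

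The level of *Nfia* was higher in nuclei with more *Bnc2* UMIs. It was 703 CPM (698 to 707) in the 8673 nuclei with no *Bnc2* UMI, 924 (887 to 962) in the 148 with 1, and 1117 (1053 to 1184) in the 56 with 2. It reached 1723 CPM (1579 to 1876) in the 22 nuclei with 3 to 4 and 2043 CPM (1866 to 2231) in the 17 with 5 to 9. The intervals of neighbouring classes did not overlap until the last pair, which touched between 1866 and 1876 CPM. The single nucleus with 10 or more had 42 *Nfia* UMIs, or 1816 CPM. *Nfib* stayed between 649 and 695 CPM over the classes with more than 1 nucleus. *Nfic* lay between 33.0 and 49.7 CPM and *Nfix* between 77.1 and 117 CPM in these classes, with wide intervals and no order.

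**Figure D2:**
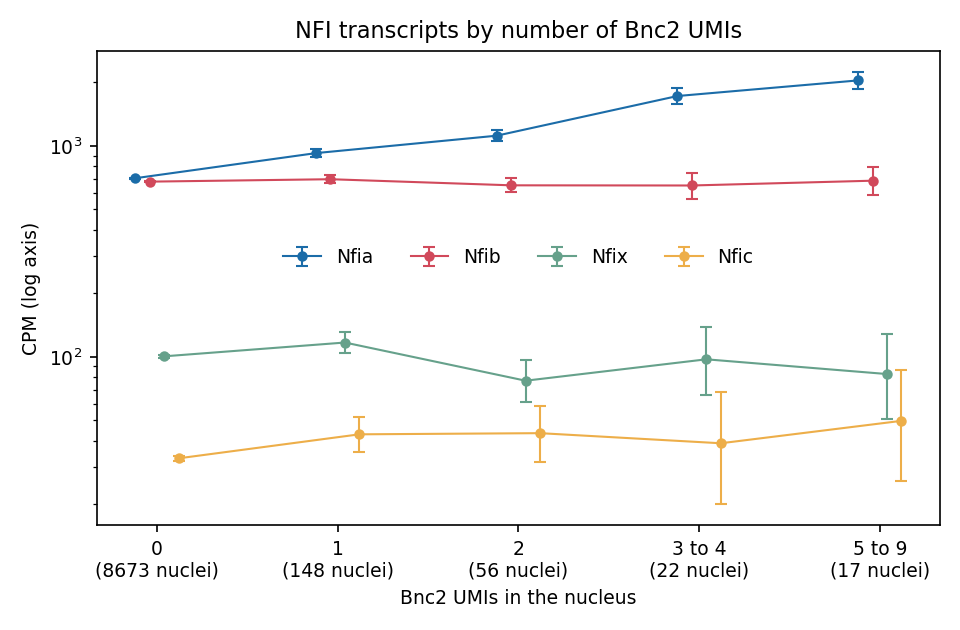
Level of each NFI member in CPM on a log axis (y axis) in nuclei grouped by their number of *Bnc2* UMIs (x axis, with the number of nuclei), with 95% exact Poisson intervals as bars; the single nucleus with 10 or more is left out. *Nfia* goes from 703 to 2043 CPM, while *Nfib* stays between 649 and 695 CPM.

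Clustering the 8917 nuclei with the settings that the methods state gave 8 clusters, numbered 0 to 7 from the largest. Neither these nuclei nor the number of clusters are those of the study, which kept fewer nuclei and describes fewer clusters, so that the numbers do not correspond. With at most 5% mitochondrial UMIs, 30 *Bnc2* nuclei and 1924 others remained, together as many nuclei as the study kept. They formed 5 clusters, the number that the study describes. Whether they are the same nuclei and clusters was not tested. Among the 8917 nuclei, 62 of the 96 *Bnc2* nuclei lay in cluster 7, which has 182 nuclei. Nuclei in cluster 7 made up 86 of the 8673 nuclei without *Bnc2* UMIs and 16 of the 17 with 5 to 9. Most of the difference in *Nfia* went with this cluster. Its OPC marker sum was 4743 CPM, the second lowest of the 8 clusters, and its median depth was 10151 UMIs. The pericyte and fibroblast genes summed to 8.32 CPM in it and to 0.421 to 1.01 CPM in the others, from 6 UMIs each of *Col1a1*, *Col3a1* and *Lum*, with the other 5 genes at 0. The microglial genes summed to 16.2 CPM, the highest of the 8, of which *P2ry12* gave 15.3 CPM, and 6 of the 8 genes were at 0. The part of these genes in the level of *Nfia* was not tested. Within cluster 7, *Nfia* was at 1921 CPM (1826 to 2019.7) in the 62 *Bnc2* nuclei and 1771 CPM (1701 to 1843) in the other 120, a ratio of 1.08 (1.02 to 1.16). The 120 nuclei of cluster 7 with fewer than 2 *Bnc2* UMIs were thus at 2.54 times (2.44 to 2.65) the 696 CPM of the other 8701 nuclei outside it. *Bnc2* itself was at 118 CPM in cluster 7 and at 0.818 to 2.55 CPM in the other clusters. Of the 120 nuclei, 34 had 1 *Bnc2* UMI. At the depth of this cluster, fewer than 2 UMIs do not show that a nucleus lacks *Bnc2*. Outside cluster 7, the 34 *Bnc2* nuclei were at 844 CPM (781 to 911), a ratio of 1.21 (1.12 to 1.31), which does not pass 1.5. Of these 34, 15 lay in cluster 5, the cluster with the deepest nuclei (median 30276 UMIs), where the ratio was 1.21 (1.10 to 1.34) as well, and 8 in cluster 3, where it was 1.01 (0.767 to 1.30). *Nfix* in the 34 nuclei was at 63.5 against 101 CPM, a ratio of 0.630 (0.467 to 0.831) from 50 UMIs. That ratio passes 1.5 downward, with an interval that reaches to the other side of this limit. Within cluster 7 the ratio of *Nfix* was 0.890 (0.668 to 1.18). *Nfib* was at 0.983 times (0.884 to 1.09) within the cluster and 0.946 times (0.865 to 1.03) outside it.

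Across the clusters each member had its own pattern. Only *Nfia* of the family was among the 3000 variable genes that the clusters rest on, together with *Bnc2*, so that the clusters are not independent of these 2 genes. *Nfia* was highest in cluster 7, at 1827 CPM (1770.0 to 1884). With at most 5% mitochondrial UMIs, where 5 clusters formed, no cluster reached this level: the highest, of 331 nuclei, was at 919.5 CPM and the ratio of highest to lowest was 1.53 in place of 2.98. Clusters 4, 2, 5 and 0 followed with 826, 771, 719.7 and 665 CPM. Clusters 1, 6 and 3 were lowest, with 629.8, 627 and 613 CPM and overlapping neighbours. Without the 182 nuclei of cluster 7 it therefore varied between 613 and 826 CPM.

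*Nfib* was highest in cluster 1, the second largest with 1733 nuclei, at 924 CPM (911 to 937). The other 7 clusters lay between 600.2 and 693 CPM. The ratio of cluster 1 to all other nuclei was 1.46 (1.44 to 1.49). After cluster 1 came clusters 7 and 5 with overlapping intervals (693 and 679 CPM), cluster 2 (655 CPM), and then clusters 4, 0, 6 and 3 with overlapping neighbours. Cluster 1 was also the only one of the 8 in which *Nfib*, with 51.9% of the family's UMIs, exceeded *Nfia*, with 35.4%, in UMIs. In cluster 7 these shares were 26.0% and 68.4%.

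*Nfix* had the widest range of the 4 relative to its level. It was at 186 CPM (180.1 to 192) in cluster 1 and 145 CPM (139 to 151) in cluster 3. Clusters 7, 5 and 0 had 105, 101 and 93.6 CPM with overlapping intervals, and cluster 4 had 58.4 CPM. Clusters 2 and 6, which overlap, were lowest with 50.3 and 48.8 CPM, so that the highest was 3.804 times (3.49 to 4.16) the lowest. At 5000 UMIs *Nfix* was detected in 58.1% (55.7 to 60.4) of nuclei of cluster 1. *Nfic* was lowest in cluster 4 (27.0 CPM) and highest in cluster 7 (43.5 CPM), and each cluster overlapped its neighbour in the order.

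**Figure D3:**
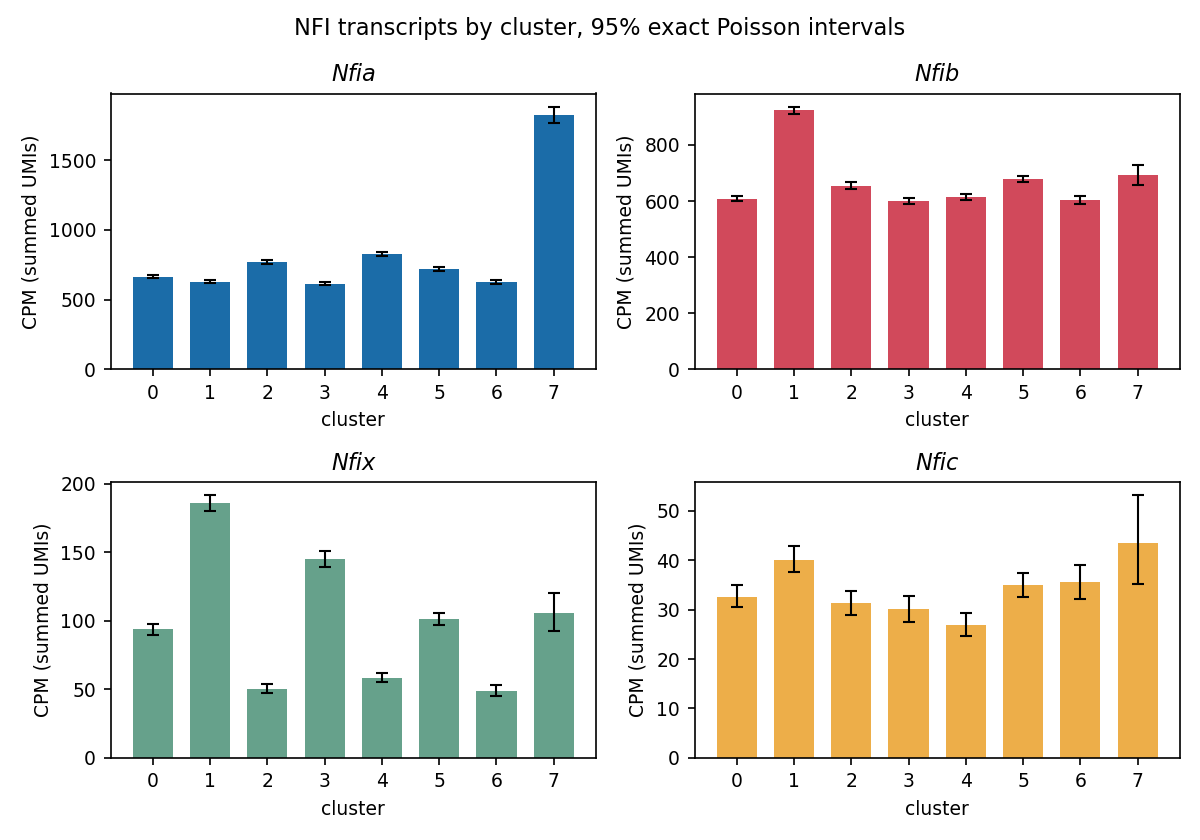
Level of each NFI member in CPM (y axes, each from 0) in clusters 0 to 7 (x axes), with 95% exact Poisson intervals as bars. *Nfia* stands out in cluster 7 (1827 CPM), *Nfib* and *Nfix* in cluster 1 (924 and 186 CPM), and *Nfix* also in cluster 3 (145 CPM).

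Other measures moved with cluster 1. Its OPC marker sum was 1823 CPM, the lowest of the 8, while the leptomeningeal and the choroid plexus or ependymal lists had their highest sums there, at 15.3 and 12.3 CPM, and its median depth was 11623 UMIs. Each sum came mainly from 1 gene, *Foxc1* with 10.3 CPM and *Foxj1* with 10.5 CPM. The choroid plexus genes *Ttr* and *Kl* had no UMI in the cluster, and the leptomeningeal genes *Slc6a13* and *Cdh1* had 1 each. Most of its nuclei, 1575 of 1733, had *Xist* and no UMI of 4 Y-linked genes, in a culture from pups of either sex. Why such nuclei gathered in this cluster was not tested. In these 1575 nuclei *Nfib* was at 924 and *Nfix* at 186 CPM. The 63 nuclei of cluster 1 with neither kind of transcript had 928 and 169 CPM. In the 359 nuclei with *Xist* and no Y-linked UMI outside cluster 1, the levels were 721 and 106 CPM. In the 2302 nuclei outside cluster 1 with a Y-linked UMI and no *Xist* they were 618 and 109.8 CPM. Outside cluster 1, *Nfib* was thus also higher in nuclei with *Xist* than in those with Y-linked UMIs. The median depth of these nuclei differed, at 21625 and 12620 UMIs. The 176 nuclei outside cluster 1 with both kinds of transcript had a median of 25684.5 UMIs and *Nfib* at 731 CPM. The part of depth and of doublets in this difference was not tested. Within the class with *Xist* and no Y-linked UMI, *Nfib* and *Nfix* were higher in cluster 1 than outside it. In nuclei with neither kind of transcript they were at 621 and 66.3 CPM outside the cluster, again lower than in it. So few nuclei of cluster 1 were in the Y-linked class that no such comparison was made there. The part of the class and of the marker genes in these levels was not tested.

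The members' own chromosomes were examined, a step chosen after the cluster levels were seen. In cluster 1 the median log2 ratio to all other nuclei was 0.23 over 379 genes of chromosome 8, which holds *Nfix*, and −0.17 over 460 genes of chromosome 4. *Nfix* itself was at 1.13, above each of 10 neighbours, which ran from −1.10 to 0.62. Neighbours were the 5 nearest genes with at least 20 CPM on each side. In cluster 3 *Nfix* was at 0.61, again above all 10 (−0.24 to 0.28), and in clusters 2, 4 and 6 it was below all 10, at −1.11, −0.87 and −1.10. *Nfib* in cluster 1 was at 0.55, with 2 of its 10 neighbours above it. *Nfia* in cluster 7 was at 1.39, above all 10 of its neighbours, which ran from −0.84 to 0.20.

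The genes most like each member over the 8 cluster levels were picked among those with at least 20 CPM by the correlation of log2 CPM. For *Nfia* they were *Rpe* (r = 0.992), *Adgra3* (0.989) and *Dstyk* (0.989), a pattern set by cluster 7. *Rpe* and *Dstyk* lie on chromosome 1, whose median log2 ratio of *Bnc2* nuclei to the others was 0.23, and *Adgra3* on chromosome 5. For *Nfib* they were *Sptan1*, *Lrp3* and Gm47283, each at 0.984, the last placed on chromosome Y. For *Nfic* they were *Arhgap6* (0.955), Gm33989 (0.954) and *Cnot9* (0.938). For *Nfix* they were *Erh* (0.988), *Psma3* (0.988) and *Cpsf3* (0.980), all on chromosome 12, whose median log2 ratio was 0.53 in cluster 1 and −0.53 in cluster 2. *Nfix* itself lies on chromosome 8. Among the members the highest such correlations were 0.619 for *Nfib* with *Nfic* and 0.602 for *Nfib* with *Nfix*, and that of *Nfia* with *Nfib* was 0.052. These describe 8 points from 1 library.

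Since *Nfia*, *Nfib* and *Bnc2* share chromosome 4, the whole chromosome was compared between *Bnc2* nuclei and the rest. The median log2 ratio of its 460 genes was −0.03, against −0.05 over the 7351 genes of all chromosomes. The start of *Nfib* lies 1.97 Mb and that of *Nfia* 13.1 Mb from the start of *Bnc2*. The 5 nearest genes of at least 20 CPM on each side were taken for each member and *Bnc2*. None of these 10 around *Nfia* passed 1.5 in either direction, with log2 ratios from −0.34 to 0.46, against 0.97 for *Nfia*. *Ror1* lies past *Nfia*, beyond the 5 genes taken on that side. Its start is 15.4 Mb from that of *Bnc2*, and its log2 ratio was 2.78. Of the 10 nearest to *Nfib* 1 did, *Frmd3*, at 91.5 against 49.1 CPM, and of the 10 nearest to *Bnc2* *Adamtsl1* did, at 181 against 89.8 CPM. Near *Nfic* none did. Near *Nfix*, *Gadd45gip1* was lower, at 42.3 against 71.6 CPM. The genes of chromosome 1, which holds no member, had a median log2 ratio of 0.23, the farthest from 0 of the 20 chromosomes with a value.

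**Figure D4:**
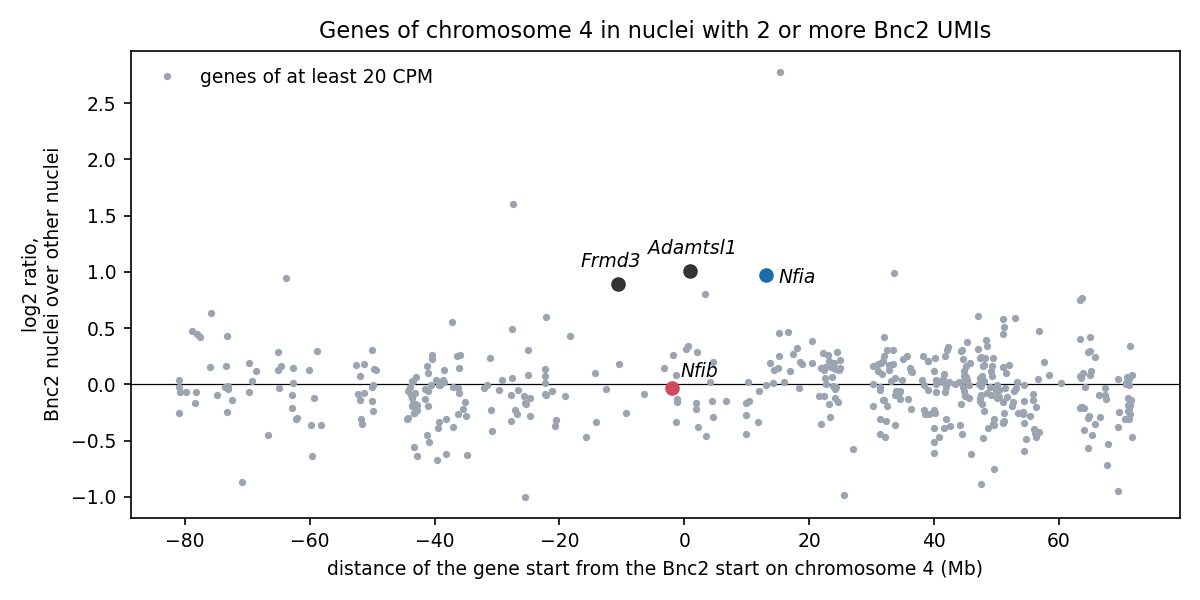
Log2 ratio of CPM in *Bnc2* nuclei to other nuclei (y axis, pseudocount 0.5 CPM) of the 460 genes of chromosome 4 with at least 20 CPM (points), by distance of the gene start from that of *Bnc2* in Mb (x axis). *Nfia* at 0.97, *Adamtsl1* and *Frmd3* lie above the band of most genes around 0, and *Nfib* lies at −0.03 within it. The highest point is *Ror1* at 2.78, at 15.4 Mb.

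The genes around the NFI factors were taken from 5 lists. Of 6 regulators that act upstream of or with NFIA, all had at least 1 CPM and 1 was at least 1.5 times higher in *Bnc2* nuclei, *Pax6* (17.03 against 10.6 CPM), an early neural progenitor factor, whose ratio of 1.60 has an interval (1.05 to 2.34) that reaches below 1.5. Against the 11.3% of all genes that were higher by that fold, nothing is read from a single gene in so short a list. *Sox9*, the direct inducer of *Nfia*, was at 225 against 205 CPM, a ratio of 1.10 (0.987 to 1.22), and *Notch1* was at 1.01 times (0.852 to 1.20). Of the 3 known shared targets of NFIA and SOX9, *Mmd2* was higher, at 18.9 against 10.6 CPM and a ratio of 1.78 (1.19 to 2.55). *Zcchc24* was at 1.00 times (0.855 to 1.17), and *Apcdd1* had 3 UMIs in *Bnc2* nuclei. The median log2 ratios of these lists were 0.06 and 0.01, against −0.04 over the 13787 genes.

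Of 8 astroglial genes that NFI factors are known to activate, 5 had at least 1 CPM. *S100b*, a calcium-binding protein of glia, was at 212 CPM (190 to 236) in *Bnc2* nuclei and 90.5 CPM (88.9 to 92.1) in the others, 2.34 times as high (2.10 to 2.61). *Aldoc*, a glycolytic enzyme of astroglia, was at 264 against 191 CPM, below the fold, and *Fabp7*, the brain fatty acid binding protein, was lower at 1177 against 1715 CPM, a ratio of 0.687 (0.656 to 0.719). *Slc1a3*, a glutamate transporter, was at 175 against 238 CPM. The defining astrocyte genes *Gfap*, *Aqp4*, *Gja1* and *Aldh1l1* had no UMI in *Bnc2* nuclei, which allows up to 2.33 CPM each, and were at 1.15, 0.0287, 0.0430 and 0.387 CPM in the others. *Gfap* counts as the 1 gene past 1.5 downward in this list, although its level in the others lies under that limit. The list's median log2 ratio was −0.44.

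Among 5 targets in progenitors, 4 had at least 1 CPM and 1 was lower, the Notch effector *Hes1*, at 7.57 CPM (3.91 to 13.2) from 12 UMIs against 14.3 CPM. Of all genes 12.8% were lower by that fold, and nothing is read from 1 lower gene in this list or in the next. *Ezh2*, a Polycomb methyltransferase that NFI factors are known to repress, was at 305 against 276 CPM, a ratio of 1.10 (1.01 to 1.21). Of 7 genes on the oligodendrocyte side, 6 had at least 1 CPM and 1 was lower, *Nkx2-2*, a factor of oligodendrocyte differentiation, at 6.31 CPM from 10 UMIs against 21.7 CPM. *Olig1*, *Olig2* and *Sox10*, factors of the lineage, were at 0.930 (0.870 to 0.993), 1.00 (0.915 to 1.10) and 0.946 (0.790 to 1.12) times. The median log2 ratios of the 2 lists were −0.13 and −0.09.

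The 5 genes of at least 20 CPM with the highest ratio in *Bnc2* nuclei were *Trpm3* (26.0), *Dync1i1* (22.0), *Fras1* (11.8), *Pde1c* (7.61) and *Adgra3* (7.48), all beyond *Nfia*. Markers of other cells moved with this group in part. The 8 pericyte and fibroblast genes summed to 7.57 CPM in *Bnc2* nuclei and 0.652 CPM in the others, with *Pdgfrb*, *Rgs5*, *Kcnj8*, *Col1a2* and *Dcn* at 0, and the 8 leptomeningeal genes to 13.2 and 7.12 CPM, with 3 at 0. The 8 microglial genes summed to 11.4 and 7.49 CPM with 6 at 0, the 7 endothelial genes to 11.4 and 11.2 CPM with 3 at 0, and the 6 choroid plexus or ependymal genes to 6.94 and 5.41 CPM with 4 at 0. The 8 neuronal genes summed to 142 and 128 CPM with 4 at 0, a sum carried by *Syt1* at 109 CPM in both groups. Of the 5 with at least 1 CPM, 2 were higher, *Gad1* at 15.8 against 2.16 CPM, a ratio of 7.29 (4.64 to 11.0), and *Nefl* at 12.6 against 4.07 CPM, a ratio of 3.10 (1.88 to 4.83). The 2 lower were *Rbfox3*, with no UMI against 4.08 CPM (upper limit of the ratio 0.572), and *Snap25*. *Snap25* was at 4.42 against 8.28 CPM, a ratio of 0.533 (0.214 to 1.10). Of all genes with at least 1 CPM, 11.3% were higher and 12.8% lower past 1.5. Nothing is read from these counts in so short a list. The 8 astrocyte genes summed to 423 and 465 CPM with 4 at 0, and the 8 oligodendrocyte genes to 164 CPM in both groups with 3 at 0. Their part in the level of *Nfia* was not tested.

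By cell cycle phase, scored from S and G2/M genes, *Nfia* was lowest in S, at 640.3 CPM (632 to 649), against 726 CPM in G1 and 741 CPM in G2/M. *Nfib* and *Nfic* were highest in S, at 712 and 40.0 CPM, against 652 and 30.5 CPM in G1 and 674 and 31.8 CPM in G2/M. *Nfix* was at 107 CPM in G2/M and 93.2 and 93.5 CPM in G1 and S. The ratios of G2/M to S were 1.16 (1.14 to 1.18) for *Nfia*, 0.947 (0.932 to 0.962) for *Nfib*, 0.794 (0.742 to 0.851) for *Nfic* and 1.15 (1.10 to 1.20) for *Nfix*. These differences exceed counting error and none passes 1.5. Nuclei in the phases differed in depth, with medians of 11780.0, 12670.5 and 16473.5 UMIs in G1, S and G2/M.

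The barcodes that the cutoffs removed carried the same order of members. In the 918 barcodes under 2000 genes, where mitochondrial genes took 19.5% of UMIs, *Nfia* was at 680.0 CPM (642 to 720) and *Nfib* at 589.5 CPM (554 to 627). In the 212 over 8000 genes they were at 669 and 655 CPM. *Nfix* was at 88.2 and 111 CPM and *Nfic* at 27.3 and 31.8 CPM in these sets. *Bnc2* nuclei were 1 of 918, 96 of 8917 and 5 of 212 barcodes under, within and over the cutoffs.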

How the data were processed

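Nuclei of cultured BB-p53n OPCs were sequenced as 1 library, and the 6 samples of brains with tumors were left out as they are not this culture. The authors aligned reads and called barcodes with Cell Ranger 8.0.1 against mm39. The deposited values are raw UMI counts, not normalized and not yet cut on detected genes. The members and lists were chosen with earlier results of these data known. From the deposited counts, levels are UMIs summed over nuclei and scaled to 1000000 UMIs (CPM), so a level rests most on deep nuclei. Genes were placed with GENCODE vM39 on GRCm39, the same build as mm39, which matched 33185 of 33696 genes. Clusters were made with Seurat 5.3.0 in R 4.3.3 (scale factor 1000, total counts regressed out, 20 principal components of 3000 variable genes, 200 neighbors, resolution 1.0), and phases with 43 S and 54 G2/M genes. Scrublet, run through scanpy 1.11.5, scored doublets. Levels used numpy 2.4.6, pandas 2.3.3 and scipy 1.17.1. Log2 ratios used a pseudocount of 0.5 CPM. A gene was counted as higher or lower past a ratio of 1.5, with no test. The genes named are the members, *Bnc2*, *Trp53* and *Pdgfb*, the lists, the 5 nearest genes of at least 20 CPM on each side of a member, the 5 highest ratios, and the 3 genes most like each member; *Ror1* was chosen after its value was seen, and some genes that the rule names are not reported here. On simulated counts for the comparison of *Bnc2* nuclei with the others, over 7355 genes, 100.0% of 100 genes at a ratio of 2 and 97.0% of 100 at 0.5 passed 1.5, and 0.433% of 7155 unchanged genes did. These genes had at least 20 CPM, and their counts were drawn as Poisson counts per group, without variation between nuclei. Real nuclei can vary more: for *Nfia* in *Bnc2* nuclei at 5000 UMIs the variance over the mean was 3.71. The shares therefore cover counting error only.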

Additional observations from a re-analysis of the deposited data

How the results depend on the processing

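No paired analysis was possible because the values come from 1 library with no second group. Values were recomputed under each alternative and compared with the interval of the first value; with 1 library no test bears on them. Levels of *Nfia*, *Nfib*, *Nfix* and *Nfic* were 763, 723, 107 and 35.6 CPM without mitochondrial genes in the total. With at most 5% mitochondrial UMIs *Nfib*, *Nfix* and *Nfic* were 647, 109.7 and 31.9 CPM, without the 8% highest Scrublet scores *Nfib* and *Nfix* were 671.5 and 98.8 CPM, and as means of single nuclei *Nfia* and *Nfix* were 700.2 and 106 CPM. Without the nuclei above the automatic Scrublet threshold, an alternative chosen after seeing the data, *Nfia* was 707 CPM. The other 16 recomputed levels lay within the intervals. Per kb of exon *Nfia* was 1.53, 12.7 and 4.67 times *Nfib*, *Nfic* and *Nfix*, against 1.27, 3.68 and 2.06 per kb of gene body. Shares of nuclei follow depth: for *Nfia*, *Nfib*, *Nfic* and *Nfix* they were 82.9%, 84.2%, 9.45% and 25.8% at 3000 UMIs and 98.5%, 99.0%, 37.9% and 67.3% without thinning.

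The ratio of *Nfia* in *Bnc2* nuclei stayed above 1.5 in each alternative listed next. It was 1.56 with 1 or more, 2.62 with 3 or more (40 nuclei) and 2.84 with 5 or more *Bnc2* UMIs (18 nuclei), 1.86 over all barcodes, 2.19 with 3000 to 7000 genes, 2.49 with at most 5% mitochondrial UMIs (30 nuclei), 2.16 without the 8% highest Scrublet scores, 2.58 when nuclei were thinned to 5000 UMIs first (33 nuclei) and 2.26 as a mean of single nuclei. Of the alternatives chosen after seeing the data it was 2.54 without the nuclei above the automatic Scrublet threshold and 1.21 outside cluster 7, which ends the call. *Nfib* was at 1.08 with 5 or more *Bnc2* UMIs, 1.17 thinned first and 1.04 without the automatic doublets. *Nfic* was at 1.81 thinned first, which passes 1.5 and gains the call. *Nfix* had no stable direction: 1.03 with 1 or more *Bnc2* UMIs, 1.06 with at most 5% mitochondrial UMIs, 1.13 thinned first, 1.03 without the automatic doublets and 0.630 outside cluster 7. The value outside cluster 7 passes 1.5 downward and gains that call. The other 36 ratios lay within the intervals. The cause of these shifts was not tested.

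Genes past the fold in *Bnc2* nuclei, 1557 higher and 1769 lower, were 678 and 827 at a fold of 2, 336 and 316 with at least 20 CPM, and 3721 and 11097 with at least 1 UMI, where most counts are near 0. Clustered without the 4 members and *Bnc2*, nuclei fell into nearly the same clusters (adjusted Rand index 0.996), and the members' highest and lowest levels lay within the intervals. The highest over lowest level was 1.53 for *Nfia* and 2.97 for *Nfix* when nuclei over 5% mitochondrial UMIs were left out, where 5 clusters formed and the highest *Nfia* level was 919.5 CPM in 331 nuclei, and 1.83 for *Nfib* and 4.52 for *Nfix* with 20 neighbors, where 16 clusters formed. The other 12 such ratios, the 4 phase ratios and the 2 chromosome 4 medians lay within the intervals. Depth limits *Nfic* most: 68 UMIs in all *Bnc2* nuclei.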

Other observations

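Genes around the NFI factors also differed in cluster 1, where *Nfib* and *Nfix* were highest. These values describe 1733 nuclei of 1 library against all others, and the clusters were made from the same counts. The Notch effectors *Hes1* and *Hes5* were at 38.3 against 9.79 CPM and 10.8 against 3.92 CPM, ratios of 3.91 (3.58 to 4.28) and 2.77 (2.36 to 3.24), and the receptor *Notch1* was at 129 against 80.8 CPM. *Lhx2*, a forebrain progenitor factor, was at 56.8 against 19.5 CPM, whereas *Sox9* was at 83.6 against 228 CPM, a ratio of 0.367 (0.350 to 0.385). *Fabp7* was at 2585 against 1546 CPM. *S100b*, higher in *Bnc2* nuclei, was at 7.22 against 108 CPM here.

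On the oligodendrocyte side, *Sox10* was at 5.87 against 102 CPM and *Nkx2-2* at 1.17 against 25.3 CPM. *Olig1* and *Olig2* were closer, at ratios of 0.817 and 0.688. In cluster 7, where *Nfia* was highest, *Sox10* and *Olig2* were near the other nuclei, at 0.910 (0.778 to 1.06) and 0.975 (0.899 to 1.06) times, *Nkx2-2* had 3 UMIs (1.39 against 21.8 CPM), and *S100b* was at 303 against 88.6 CPM, a ratio of 3.43 (3.16 to 3.71).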
